A study of Mus musculus with 11 samples.

Results

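Adult mouse hearts labelled HMGN5 transgenic were compared with adult control hearts across all genes measured. The comparison used 6 of the 11 arrays of the series, chosen by their labels for age and genotype: 3 transgenic and 3 control. Both groups were adult mice on a C57BL/6 background, and total RNA came from the left ventricle, with 3 biological replicates in each group, numbered 1 to 3. The transgene was the whole mouse Hmgn5 cDNA, FLAG-tagged and placed behind a floxed LacZ cassette under the CAG promoter, and the mice also carried an alphaMHC-cre that removes LacZ. Controls were labelled wild-type. The alphaMHC promoter is active in heart muscle cells, and the cassette is removed only where cre is made. The labels give the controls neither cre nor the LacZ cassette, so effects of HMGN5, of cre and of the insertion cannot be told apart. The age of the adults in weeks is not given.

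HMGN5 belongs to the high mobility group N proteins, which bind nucleosomes. It has a long acidic tail, contacts linker histone H1 and loosens the packing of chromatin. The adult left ventricle is built of heart muscle cells that burn mainly fatty acids, held together by fibroblasts and their matrix and supplied by dense capillaries. Under lasting load it is known to switch on genes of the fetal heart, to lay down matrix and to lower its fatty acid enzymes.

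All 11 arrays of the series, the 6 adult ones among them, had medians between 5.12 and 5.18 on the log2 scale of the deposited values. Pairs of the 6 adult arrays correlated at 0.975 to 0.992 within a group and at 0.967 to 0.983 between groups, over 18194 genes. Replicate 3 of both groups stood apart by its 18S ribosomal RNA signal, 12.18 (transgenic) and 11.89 (control) against 7.64 to 8.58 on the other 4 arrays. Its 2 arrays also held more of the nuclear transcript Malat1, at 13.04 and 12.75 against 8.15 to 9.33. The mean of the atrial genes Myl4, Myl7 and Sln was lowest on 2 transgenic arrays. It read 10.53, 6.59 and 6.52 on transgenic replicates 1 to 3, and 10.10, 10.38 and 12.24 on the controls. Control replicate 3 had the highest value of the brown fat marker Ucp1, at 7.62 against 3.71 to 3.91 on the other arrays. The fat marker Adipoq was also highest there, at 7.89 against 3.23 to 4.64. Cidea, another marker of that list, was lowest there, at 8.77 against 9.45 to 10.22. Xist and Eif2s3y placed replicate 1 of both groups as male and the others as female, so sex was balanced.

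Hmgn5 itself, the gene of the transgene, read 8.29, 8.26 and 8.71 on the transgenic arrays and 8.44, 8.77 and 8.52 on the controls. The groups overlapped and differed by -0.16 on the log2 scale (SE 0.17, limma adjusted p = 0.821). Whether the cDNA holds the stretch that the single Hmgn5 probe set reads is not given in the sources used here. This value therefore does not check the labels, and every direction given here rests on the label transgenic.

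Of 18194 genes, 256 rose and 117 fell in transgenic adult hearts (limma on the 6 adult arrays, adjusted p under 0.05). These 373 genes were 2.05% of those tested, with 1.41% rising and 0.643% falling. The largest rise was that of the matrix gene Cilp, 27.7-fold higher. The largest fall was that of the lipase gene Ces1d, 11.2-fold lower. Changes were large: 198 rising and 83 falling genes passed 2-fold, and 46 and 21 passed 4-fold. The median size was 1.33 (log2) among rising and 1.19 among falling genes, and the smallest called were 0.66 and 0.71. Across all genes the median difference was 0.00 and 50.9% were higher in transgenic hearts. The 2 groups of arrays did not overlap for 3264 genes, or 17.9% of those tested, and all 373 called genes were among them.

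The number of called genes rested on which arrays were used. It was 58 without transgenic replicate 1, 70 without transgenic replicate 2 and 895 without transgenic replicate 3. Leaving out control replicate 1, 2 or 3 gave 144, 61 and 121. All 373 genes kept their direction in each of these 6 fits, which was fixed in advance because their 2 groups of arrays did not overlap. Of the 373, 47 (36 rising, 11 falling) kept the call in every one. With the 2 arrays of high 18S signal as a batch factor 1176 genes were called, among them all 373. Without those 2 arrays 939 were called, 343 of them shared. With the mean of Myl4, Myl7 and Sln as a covariate 0 genes were called (limma, 1266 at an unadjusted p under 0.05). The 373 genes then kept their direction, at a median of 98.2% of their size, and all had an unadjusted p under 0.05. In this fit their smallest adjusted p was 0.0849.

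**Figure D1:**
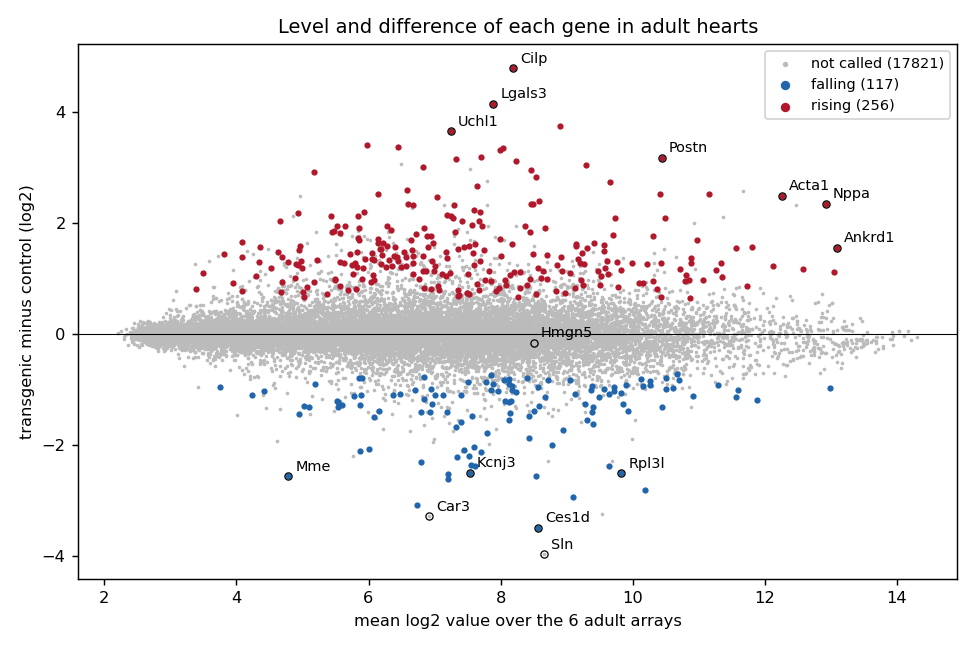
Difference between transgenic and control adult hearts (log2, vertical axis) against the mean log2 value over the 6 adult arrays (horizontal axis), 1 point per gene. Red points are the 256 rising and blue points the 117 falling genes, spread over most of the range of levels; Hmgn5 lies near 0, and Sln and Car3 differed widely without being called.

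Cilp, a matrix protein of cartilage and scarred heart muscle, had the largest rise. It read 10.71, 11.10 and 9.93 on transgenic replicates 1 to 3 and 6.65, 4.92 and 5.80 on the controls. Every transgenic array stood far above every control array, and the difference was 4.79 (SE 0.46, limma adjusted p = 0.00553). Lgals3 encodes galectin-3, a sugar-binding protein of macrophages and injured tissue. It read 10.13, 10.05 and 9.71 against 5.73, 5.38 and 6.32, a rise of 4.15 (SE 0.25, adjusted p = 0.00149) with tight groups. Nmrk2 makes a muscle kinase that turns nicotinamide riboside into an NAD precursor. It read 11.00, 11.52 and 9.77 against 7.15, 7.35 and 6.56, and rose by 3.74 (SE 0.44, adjusted p = 0.0112).

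Uchl1, a ubiquitin hydrolase best known from neurons, read 9.06, 8.59 and 9.57 in transgenic hearts. Its control values lay close together at 5.30, 5.36 and 5.60, and it rose by 3.66 (SE 0.25, adjusted p = 0.00199). Nox4, an NADPH oxidase that makes hydrogen peroxide, rose by 3.40 (SE 0.44), from 4.28 ± 0.52 to 7.68 ± 0.85 (SD, n = 3 each). Its second probe set, read at 3.98 in controls, differed by 1.95. Apod, a secreted lipid carrier, showed the smallest adjusted p together with Ces1d, Ildr2 and Lgals3, at 0.00149. It read 10.75, 10.64 and 11.07 against 7.67, 7.72 and 7.91, so that the gap of 3.05 (SE 0.16) was many times the spread within either group. Psca, a small surface protein named after the prostate, rose by 3.36 (SE 0.31), and Itgbl1, a secreted protein related to integrins, by 3.32 (SE 0.28). The acute phase protease inhibitor gene Serpina3n spread most among these genes, at 8.70, 9.52 and 11.15 against 7.16, 6.25 and 6.60. It rose by 3.12 (SE 0.58, adjusted p = 0.0457).

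Other genes with very small adjusted p had little spread within the groups. Igfbp6, which binds insulin-like growth factor 2, read 9.36, 9.26 and 9.39 against 7.29, 7.41 and 7.45. The difference of 1.95 (SE 0.12) had an adjusted p of 0.00162. Lbp, the plasma protein that binds bacterial lipopolysaccharide, rose by 2.12 (SE 0.15), the surface glycoprotein gene Cd24a by 2.66 (SE 0.19) and the channel gene Calhm5 by 1.65 (SE 0.12). The 10 called genes with the smallest p, which also include Mme, kept the call in all 6 fits that left out 1 array, with adjusted p of at most 0.0318. Of the 15 genes with the largest rises 7 kept it in all 6, and of the 15 largest falls also 7. Adjusted p among these 30 genes reached 0.214 without 1 array.

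**Figure D2:**
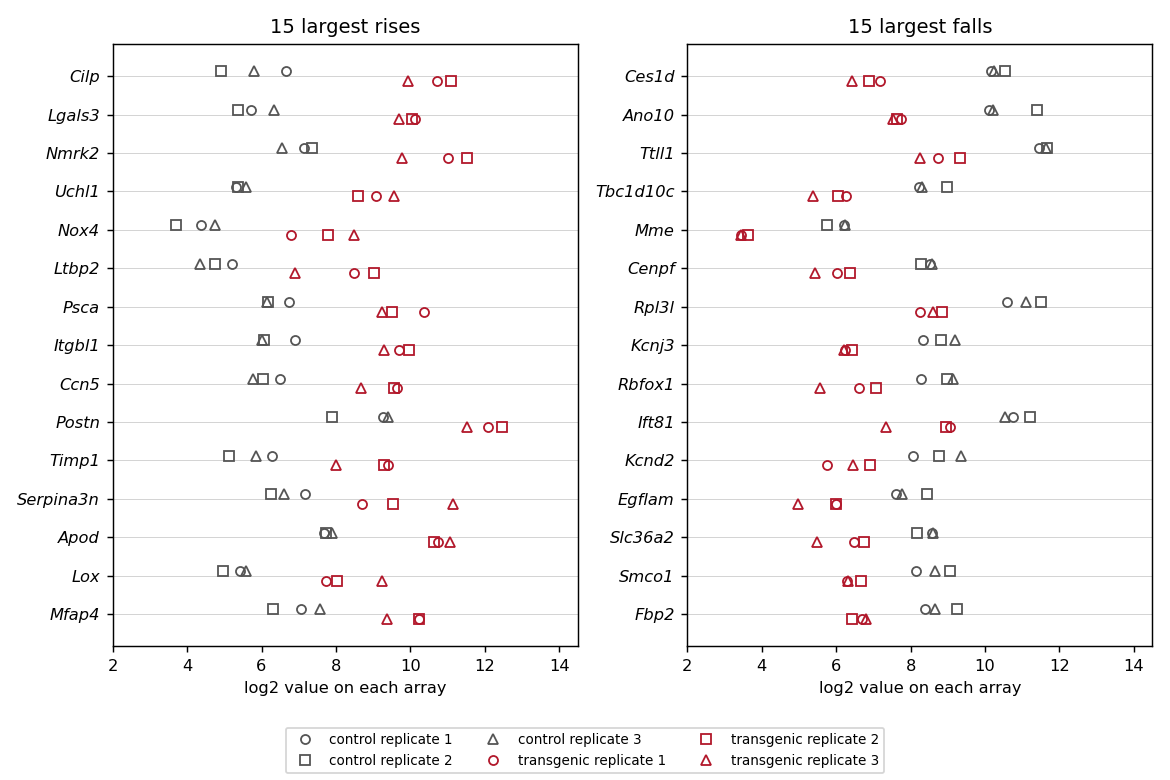
Log2 value on each of the 6 adult arrays for the 15 genes with the largest rise (left) and the 15 with the largest fall (right), red for transgenic and grey for control hearts, with circles, squares and triangles for replicates 1, 2 and 3. Red and grey symbols do not overlap for any of the 30 genes; absence of overlap was a condition for being named, and the spread within a colour differs widely between genes.

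Genes of the extracellular matrix, the protein mesh around the cells, were mostly higher. Over 10 matrix lists, 142 of 179 measured genes were higher in transgenic hearts, 32 rose and 3 fell, with a median of 0.40. Matricellular proteins, which sit in the matrix and signal to cells, had 7 of 19 members rising and 0 falling, with a median of 0.99. Besides Cilp these were Ccn2, Ccn5, Postn, Igfbp7, Thbs1 and Thbs4. Ccn2, a target of stretch and TGF-beta signalling, read 12.44, 12.23 and 12.59 against 10.08, 9.53 and 10.05. It rose by 2.53 (SE 0.19, adjusted p = 0.00297), with both groups narrow. Postn, the mark of activated fibroblasts, read 12.09, 12.45 and 11.53 against 9.27, 7.89 and 9.39 and rose by 3.18 (SE 0.42). Ccn5, a family member that lacks the last domain of Ccn2, rose by 3.19 (SE 0.30). Cilp, Ccn2 and Ccn5 kept the call without each array in turn, and the other 4 lost it in some of these fits, with adjusted p up to 0.175. The number rising was 3 without transgenic replicate 1 or 2, 13 without transgenic replicate 3 and 4 without control replicate 2.

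Elastic fibres, which let tissue recoil, had 5 of 15 genes rising and 1 falling, with a median of 0.67. Mfap5, a microfibril protein, read 11.91, 11.76 and 11.36 against 9.57, 8.84 and 9.06 and rose by 2.52 (SE 0.23, adjusted p = 0.0054). Fbln2, a fibulin, was also called as rising. Mfap4 rose by 2.96 (SE 0.36), the latent TGF-beta binding protein gene Ltbp2 by 3.37 (SE 0.51) and elastin itself (Eln) by 2.04 (SE 0.23). The second Eln probe set, at 6.15 in controls against 6.40 for the one used, differed by 0.27. Emilin2 went the other way, from 9.16 ± 0.31 to 7.69 ± 0.21 (SD, n = 3 each), a fall of 1.47 (SE 0.19). Mfap5 alone of these 6 called genes was called in all 6 fits that left out an array; 1 rose without transgenic replicate 1, 2 without transgenic replicate 2 and 3 without any 1 control. Among proteoglycans 4 of 18 rose and 0 fell (median 0.56): osteomodulin (Omd) by 2.33, asporin (Aspn) by 1.91, biglycan (Bgn) by 1.70 and the syndecan Sdc4 by 1.07. Omd and its relatives bind and space collagen fibrils. Of proteoglycans 1 or 2 rose without any array but transgenic replicate 3, and 9 without that one.

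Few collagens were called. The 2 called, Col8a1 and Col5a2, rose and 0 fell, with a median of 0.51 over the list. Col8a1, a network collagen of vessels and scars, read 11.12, 11.37 and 10.58 against 8.87, 7.58 and 8.38, a rise of 2.74 (SE 0.34). The main fibrillar genes were not called. Col1a1 read 8.73, 8.89 and 8.12 against 8.20, 6.42 and 8.31, and Col3a1 read 12.13, 12.32 and 10.94 against 11.35, 10.44 and 12.08. Both overlapped between the groups. Their differences were 0.94 (SE 0.49) and 0.51 (SE 0.49). The collagen median was 0.91 over replicates 1 and 2 and -0.19 in replicate 3. Without the 2 arrays of replicate 3, 9 of 19 collagens were called as rising, and without transgenic replicate 1 or 2 or control replicate 3 none was. Lysyl oxidase (Lox), which cross-links collagen and elastin, rose by 3.01 (SE 0.38) and the procollagen processing enhancer Pcolce2 by 1.09 (SE 0.14). The laminins, of the basement membrane, had 2 of 10 falling and 0 rising, Lamb3 by 1.41 (SE 0.14) and Lama5 by 0.82 (SE 0.14).

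Some protease inhibitors rose. Timp1, which blocks matrix metalloproteinases, read 9.41, 9.30 and 8.00 against 6.29, 5.11 and 5.85 and rose by 3.15 (SE 0.43, adjusted p = 0.0201). Of 11 serpins 3 rose and 0 fell (median 0.62): Serpina3n, Serpinf1 by 1.79 (SE 0.28) and the complement inhibitor Serping1 by 1.16 (SE 0.15). Among 25 proteases and their inhibitors only Timp1 and the cathepsin gene Ctsk (1.47, SE 0.27) rose. Of 27 genes of TGF-beta signalling, the main pathway that turns on matrix synthesis, 5 rose and 0 fell, with a median of 0.38. Its ligand Tgfb3 read 8.89, 8.79 and 8.00 against 6.50, 6.54 and 6.72, a rise of 1.97 (SE 0.24). The receptor gene Tgfbr1 rose by 1.09 (SE 0.17), the ligand-binding Fstl3 by 1.49, Bmp6 by 0.69 and the target Tgfbi by 0.89. The 5 TGF-beta genes and the 3 serpins each lost the call in at least 1 of the 6 fits that left out an array. Of the TGF-beta list 1 gene rose without control replicate 3, 7 without transgenic replicate 3 and 0 without any other array.

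The fibroblast markers moved with these matrix genes, and the lists share members. Of 12 markers of activated fibroblasts 6 rose (Cilp, Postn, Lox, Ltbp2, Thbs4 and Acta2), with a median of 2.25, and their mean level read 7.90 to 9.30 on transgenic and 6.25 to 7.00 on control arrays. Of the 12, 2 rose without transgenic replicate 1, 1 without transgenic replicate 2, 10 without transgenic replicate 3, and 3, 2 and 4 without control replicates 1 to 3. Cilp alone of the 6 kept the call in every one of these fits. Of 15 markers of resting fibroblasts 2 rose, Mfap4 and Pi16, with a median of 0.31 and mean levels of 9.55 to 9.95 against 9.11 to 9.54. In whole ventricle RNA more cells of a type and more RNA per cell cannot be told apart. The part of a changed cell make-up in the matrix genes, or in the other lists, was not tested.

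Genes that the heart uses before birth or under load had 8 of 20 members rising and 0 falling, with a median of 0.89. Most are genes of heart muscle cells. Nppa, the atrial natriuretic peptide, read 14.19, 14.05 and 14.06 against 12.02, 11.21 and 12.01 and rose by 2.35 (SE 0.23, adjusted p = 0.00564). All 3 transgenic values lay near the top of the scale, where the highest probe set of an array read 14.21 to 14.37. With the mean of Myl4, Myl7 and Sln as a covariate, the difference of Nppa was 2.52 (limma adjusted p = 0.153). The part of atrial tissue in the rise of Nppa was not tested beyond this fit. Acta1, the skeletal actin of the fetal heart, read 13.58, 13.25 and 13.70 against 11.52, 10.16 and 11.36 and rose by 2.49 (SE 0.35). Ankrd1, a stretch sensor of the sarcomere, read 13.89, 13.83 and 13.89 against 12.53, 12.57 and 11.85, a rise of 1.56 (SE 0.21).

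Fhl1, a partner of titin, rose by 1.57 (SE 0.27), Ankrd23 by 0.97 (SE 0.15) and the smooth muscle actin gene Acta2 by 1.56 (SE 0.26). Nmrk2 and Uchl1 complete the 8. The load genes Nppb and Myh7 had wide control groups, and their calls depended on the arrays and the model. Nppb, the B-type natriuretic peptide, read 13.80, 13.69 and 13.41 against 12.62, 11.23 and 10.06 (difference 2.33, SE 0.56, adjusted p = 0.0989). Myh7, the slow myosin of the fetal ventricle, read 12.86, 13.08 and 12.94 against 12.10, 9.45 and 9.58 (difference 2.58, SE 0.65, adjusted p = 0.108). In both genes every transgenic array exceeded every control array, and control replicate 1 came nearest. Without that array both were called, with limma adjusted p of 0.0278 for Nppb and 0.00567 for Myh7. Both were also called with the 18S batch factor (0.0182 and 0.0467), and Nppb without the 2 arrays of high 18S signal (0.0441). The adult partner Myh6 read 13.73 to 13.95 against 13.89 to 14.16. Uchl1 and Nppa kept the call without each array in turn, and the other 6 did not. The list had 2 members rising without transgenic replicate 1, 3 without transgenic replicate 2 or control replicate 2, and 5 without control replicate 3.

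The promoters of Acta1 and Ankrd1, which are highly expressed and rose together, are shown because both hold a short muscle element known as MCAT, which TEAD factors bind. The sequences come from RefSeq (GRCm38.p6), 5′ to 3′ along the gene's strand, with the element in capitals.
Acta1 MCAT, chr8:123894804-123894833, minus strand: gaagggcagcaaCATTCCttcggggcggtg
Acta1 CArG box, chr8:123894829-123894858, minus strand: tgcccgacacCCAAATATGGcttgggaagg
Ankrd1 MCAT, chr19:36119950-36119979, minus strand: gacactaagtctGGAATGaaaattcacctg
Ankrd1 MCAT, chr19:36120037-36120066, minus strand: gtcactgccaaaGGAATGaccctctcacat
The elements lie 46 and 73 bases before the start in Acta1, and 123 and 210 bases before it in Ankrd1. CATTCC, searched on both strands from 250 bases before to 50 after the start, stood in 14.2% of 253 windows of rising genes and in 12.7% of 118 windows of falling genes. Among all 18110 windows of tested genes the share was 13.2%. The CArG box, which serum response factor binds, stood in 1.98%, 0.0% and 1.35% of the same windows. These shares describe letters in a window, and the presence of a match does not show a bound site.

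Most genes of fuel metabolism were lower in transgenic hearts, by small amounts. Over the 10 metabolism lists 269 of 315 genes were lower, 15 fell and 2 rose, with a median of -0.29. In fatty acid oxidation, the main fuel pathway of the adult heart, 29 of 31 genes were lower and 5 fell (16.1%), with a median of -0.58. Acaa2, the thiolase of the last step, read 11.11, 10.77 and 11.11 against 11.94, 12.29 and 12.16 and fell by 1.14 (SE 0.16, adjusted p = 0.0219). Cpt2, which hands fatty acids to the mitochondrial matrix, read 10.84, 10.83 and 10.79 against 11.43, 11.97 and 11.83 and fell by 0.92 (SE 0.16). Both genes had transgenic values clear of the controls. Ech1 fell by 0.97 (SE 0.18), Eci1 by 1.00 (SE 0.19) and the carnitine acetyltransferase gene Crat by 1.02 (SE 0.20). None of the 5 enzymes kept the call in all 6 fits that left out an array, with adjusted p up to 0.222. The number falling was 7 without transgenic replicate 3, 2 without control replicate 1 and 0 without any other array. The pathway's receptor gene Ppara read 7.23, 7.09 and 7.94 against 8.21, 8.91 and 8.91, without overlap, and was not called (-1.26, SE 0.28, adjusted p = 0.0798), but was with the 18S batch factor (adjusted p = 0.0133). Its partner Rxrg fell by 1.04 (SE 0.16).

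Enzymes that burn ketones and amino acids had 24 of 25 genes lower and 4 falling (16.0%), with a median of -0.61. Mmut, the mutase that feeds propionate carbon into the citric acid cycle, read 9.90, 9.96 and 10.17 against 10.83, 11.10 and 11.09 and fell by 0.99 (SE 0.14, adjusted p = 0.0237). The leucine pathway genes Ivd, Mccc1 and Mccc2 fell by 0.92, 0.95 and 0.83 (SE 0.15 to 0.16). Without transgenic replicate 3 there were 6 falling genes in this list, without control replicate 1 or 3 there were 2 and 1, and without any other array 0. With the 18S batch factor 12 fell. In the citric acid cycle 28 of 29 genes were lower and 1, the pyruvate dehydrogenase phosphatase gene Pdp2, fell by 1.08 (SE 0.19). Of the respiratory chain no gene was called, though 34 of 34 complex I genes were lower (median -0.24) and 32 of 33 of complexes III to V (median -0.19). Ndufs1, a core subunit of complex I, came nearest, at 11.54, 11.63 and 11.69 against 12.12, 12.42 and 12.42 (-0.70, SE 0.14, adjusted p = 0.0579), and was called with the 18S batch factor (adjusted p = 0.0236). Mitochondrial ribosomal proteins had 57 of 67 genes lower and 0 called. These medians were close to each other in replicates 1 and 2 and in replicate 3, at -0.62 and -0.45 for fatty acid oxidation and at -0.23 and -0.24 for complex I. Genes within such a list vary together, so the counts are not independent observations.

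Glycolysis had 16 of 29 genes higher and a median of 0.10, with 1 gene rising and 1 falling. Pfkp, the platelet form of the enzyme that commits glucose to glycolysis, read 10.01, 10.10 and 9.79 against 8.52, 8.46 and 8.53 and rose by 1.46 (SE 0.13, adjusted p = 0.0054). Fbp2, the muscle enzyme of the reverse step, read 6.70, 6.41 and 6.79 against 8.39, 9.26 and 8.65 and fell by 2.13 (SE 0.24). Genes of NAD supply also split: Nmrk2 rose by 3.74 while Nampt, the main salvage enzyme, read 9.11, 9.48 and 9.29 against 10.18, 10.65 and 10.25 and fell by 1.07 (SE 0.17). Among lipid genes, Ces1d read 7.17, 6.88 and 6.43 against 10.17, 10.53 and 10.24 and had the largest fall of the 117 falling genes, 3.49 (SE 0.21, adjusted p = 0.00149). Its 2 other probe sets differed by -3.81 and -3.73. Ces1d encodes a carboxylesterase that splits stored fat and is also found in fat tissue. Fat markers as a list had 0 of 10 called, with mean levels of 5.46 to 5.68 on transgenic and 5.91 to 6.96 on control arrays, highest on control replicate 3. In the mean of the fat markers every transgenic array was thus below every control array, as in Ces1d. Of the 10 markers 7 were lower, 3 of them without overlap. The other 3 markers were higher, with Cidea higher on every transgenic array. Over all 18194 genes 1445 were lower and 1819 higher without overlap. The difference of Ces1d without control replicate 3 was -3.53, and the part of fat tissue in it was not tested.

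Potassium channel genes, which end each heartbeat's electrical signal, had 5 of 26 members falling (19.2%) and 0 rising, with a median of -0.56. Kcnj3, a subunit of the channel opened by acetylcholine, read 6.23, 6.41 and 6.22 against 8.33, 8.81 and 9.20 and fell by 2.49 (SE 0.22, adjusted p = 0.00523). Its partner Kcnj5 fell by 0.89 (SE 0.17). Both are richer in atria, and Myl4, Myl7 and Sln averaged 10.53, 6.59 and 6.52 on the same transgenic arrays. With that mean as a covariate, the differences were -2.34 for Kcnj3 and -1.11 for Kcnj5 (limma adjusted p = 0.167 and 0.317). The part of atrial tissue in these falls was not tested beyond this fit. Kcnd2, the pore of the transient outward current, read 5.76, 6.91 and 6.44 against 8.07, 8.76 and 9.35 and fell by 2.36 (SE 0.38). Kcnip2, which tunes that pore, read 8.72, 8.77 and 8.42 against 9.92, 9.96 and 9.83 and fell by 1.27 (SE 0.14). Abcc9, the sensor of the ATP-gated channel, fell by 1.11 (SE 0.20). Kcnj3 alone kept the call without each array, and 1 to 2 channels fell without transgenic replicate 1 or 2 or control replicate 2 or 3.

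Other electrical and calcium genes gave single changes. The sodium channel subunit gene Scn4b fell by 1.12 (SE 0.19) and was the only one called of 16 sodium, calcium and pacemaker channels. Among 26 calcium cycling genes Hrc, which holds calcium in the sarcoplasmic reticulum, read 11.31, 11.41 and 11.14 against 12.46, 12.48 and 12.49 and fell by 1.19 (SE 0.13, adjusted p = 0.00822). Sri, which restrains the release channel, rose by 0.89 (SE 0.14). Of 27 adult sarcomere genes only the myosin chaperone gene Unc45b was called, with a fall of 0.82 (SE 0.14). Mme, the peptidase neprilysin that breaks down natriuretic peptides, read 3.44, 3.64 and 3.45 against 6.20, 5.74 and 6.24 and fell by 2.55 (SE 0.17, adjusted p = 0.00199). Its transgenic values lay near the bottom of the scale. The mineralocorticoid receptor gene Nr3c2 fell by 1.10 (SE 0.18).

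Several of the largest falls belonged to no pathway above. Rpl3l replaces the ribosomal protein Rpl3 in muscle ribosomes. It read 8.26, 8.85 and 8.61 against 10.60, 11.51 and 11.11 and fell by 2.50 (SE 0.26, adjusted p = 0.00687), while the other 35 of 36 cytosolic ribosomal protein genes were not called. Cenpf, known from dividing chromosomes, read 6.01, 6.38 and 5.42 against 8.52, 8.28 and 8.58 and fell by 2.52 (SE 0.24). It was the only one called of 43 cell cycle genes. The lower probe sets of Cenpf, at 5.37 and 3.50 in controls, differed by -0.48 and -0.00.

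Ano10, a scramblase-family membrane protein, read 7.74, 7.63 and 7.52 against 10.09, 11.39 and 10.21 and fell by 2.93 (SE 0.33). Ttll1, which adds glutamate chains to tubulin, fell by 2.81 (SE 0.26) on the probe set used, while the others differed by -0.73 and -0.04. The intraflagellar transport gene Ift81 fell by 2.38 (SE 0.45), and 2 of 28 genes of the cilia list were called in all. Tbc1d10c, a GTPase regulator known from lymphocytes, read 6.26, 6.04 and 5.38 against 8.21, 8.97 and 8.31 and fell by 2.61 (SE 0.29). None of 12 lymphocyte markers was called, with mean levels of 4.74 to 5.23 on transgenic and 4.91 to 5.29 on control arrays. Rbfox1, a splicing regulator of muscle and neurons, read 6.61, 7.08 and 5.55 against 8.28, 8.97 and 9.14 and fell by 2.38 (SE 0.40). It was the only one called of 19 muscle splicing regulators. Asb14, a ubiquitin ligase adaptor of muscle, fell by 2.00 (SE 0.30). The other large falls were Egflam, a matrix protein that binds dystroglycan (-2.30), the amino acid carrier gene Slc36a2 (-2.21) and the muscle gene Smco1 (-2.20).

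Chromatin and nuclear envelope genes are nearest to the role of HMGN5. Over these lists and the muscle splicing list, 3 of 150 genes rose and 1, Rbfox1, fell. This is near the 2.05% called over all genes. Of 14 high mobility group genes only Tox3, a DNA-bending factor known from neurons, rose, by 1.21 (SE 0.23, adjusted p = 0.0468). Hmgn3, a relative of Hmgn5, read 9.47, 9.59 and 8.81 against 8.48, 7.33 and 7.32 without overlap and was not called (1.58, SE 0.35, adjusted p = 0.0798). It was called with the 18S batch factor (adjusted p = 0.0167), without the 2 arrays of high 18S signal (0.0387) and without control replicate 1 (0.0367). Hmgn1 differed by -0.07 (SE 0.20). None of 5 linker histones was called. H1f2 read 11.68, 11.57 and 12.41 against 10.70, 10.98 and 10.80 (1.06, SE 0.23, adjusted p = 0.0753), and was called with the 18S batch factor (adjusted p = 0.0201). Of 61 chromatin remodellers and histone modifiers 0 were called, with 42 lower and a median of -0.15. Among 23 lamina and inner envelope genes Tmem43 rose by 1.08 (SE 0.20), and among 28 nuclear pore genes Nup50 rose by 0.83 (SE 0.14). These shares, 4.35% and 3.57%, rest on 1 gene each. The other Nup50 probe sets, at 7.01 and 4.46 in controls, differed by -0.25 and 0.13, against 6.43 in controls for the one used. The lamin A gene Lmna read 8.93, 8.92 and 9.92 against 8.30, 8.35 and 8.55 and was not called (0.86, SE 0.27, adjusted p = 0.202), but was with the 18S batch factor (adjusted p = 0.0291).

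Cytoskeleton genes were mostly higher, 35 of 39, with 3 rising and a median of 0.51. With the 18S batch factor 11 rose and 1 fell, 10 rose without transgenic replicate 3, and 1 or 2 without any other array. Cnn1, the smooth muscle calponin, rose by 1.83 (SE 0.18), the membrane linker gene Msn by 0.96 (SE 0.12) and Zyx, which marks strained actin fibres, by 1.13 (SE 0.18). Of 32 proteasome genes 29 were higher and 1, Psmd14, rose by 0.66 (SE 0.13, adjusted p = 0.04997). Psmd14 lost the call without the 2 arrays of high 18S signal (adjusted p = 0.0854) and in each of the 6 fits that left out an array. The Wnt list had Frzb, a secreted Wnt antagonist, at 8.67, 8.94 and 8.73 against 6.93, 6.43 and 6.39, a rise of 2.20 (SE 0.18, adjusted p = 0.00346). The Wnt receptor gene Fzd2 rose by 1.29 (SE 0.17). Immediate early genes had 20 of 24 higher and a median of 0.43, with 0 called. With the 18S batch factor 8 rose, without the 2 arrays of high 18S signal 5, and without transgenic replicate 3 alone 3. Atf3, a stress-induced transcription factor, differed by 1.41 (SE 0.33, adjusted p = 0.09), with an adjusted p of 0.00155 under the batch factor and 0.00471 without the high 18S arrays. Maff differed by 1.43 (SE 0.28). The lists of endoplasmic reticulum stress, heat shock, p53 targets and circadian clock genes also had 0 called, with medians of 0.03, -0.07, 0.21 and 0.04. With the 18S batch factor 5, 0, 4 and 1 of their genes rose and 1, 1, 0 and 1 fell.

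Genes of inflammation were mostly higher, apart from those of class II antigen presentation, and the number called depended on the arrays used. Of 7 class II genes 6 were lower and 0 were called, with a median of -0.40. That median was -0.00 in replicates 1 and 2 and -1.33 in replicate 3. Of 29 complement, chemokine and acute phase genes 25 were higher (median 0.34) and Lgals3 rose. In this list 9 rose without transgenic replicate 3 or without both arrays of high 18S signal, and 7 with the 18S batch factor. Of 25 interferon response genes 22 were higher and Ifit3 rose by 1.52 (SE 0.22). Their median was 0.46 in replicates 1 and 2 and -0.04 in replicate 3, and 6 rose without transgenic replicate 3. Macrophage markers had 14 of 16 members higher and 0 called, with a median of 0.43; 6 rose without transgenic replicate 3 and 4 with the 18S batch factor. Their mean level was 8.12, 8.21 and 7.52 on transgenic and 7.73, 7.47 and 7.43 on control arrays, so transgenic replicate 3 lay inside the control range. The part of macrophages in the rise of Lgals3, whose value on that array was 9.71, was not tested.

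**Figure D3:**
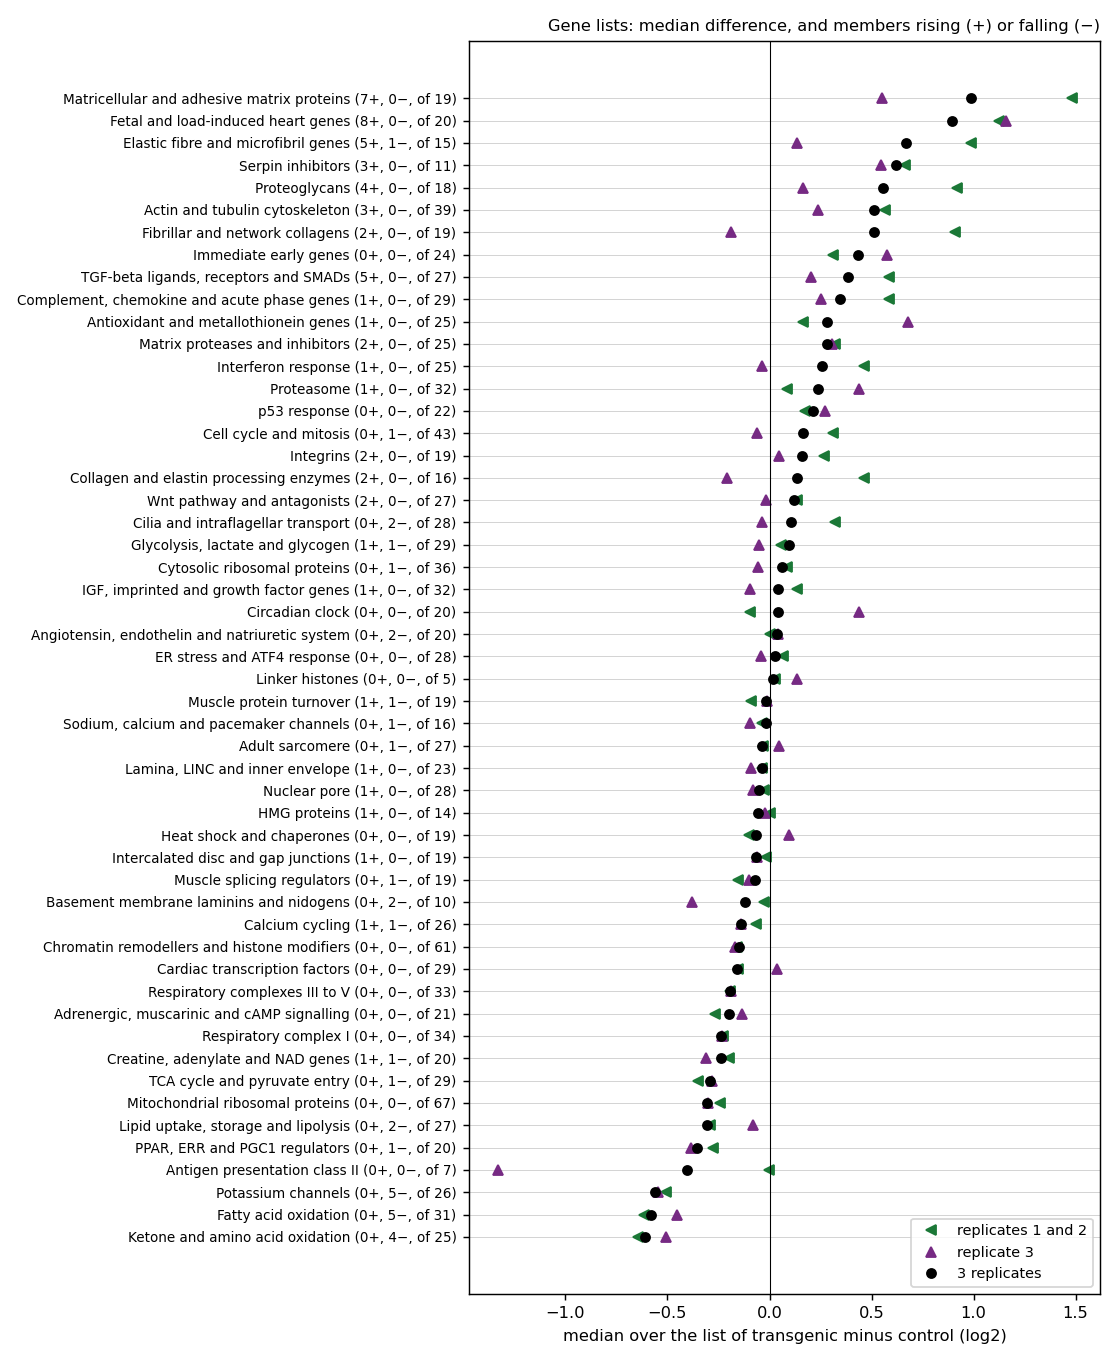
Median difference between transgenic and control adult hearts (log2) over each gene list, cell type marker lists left out: black circles from all 3 replicates, green triangles from replicates 1 and 2, purple triangles from replicate 3. Labels give how many measured members rose (+) and fell (−); matricellular genes and fetal genes lie furthest right and fatty acid and ketone oxidation furthest left, and several matrix lists lie nearer 0 in replicate 3.

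Ventricular markers were high on all 6 arrays, but 10 of 11 were slightly lower in transgenic hearts, 5 of them without overlap, with a median of -0.16. Over all 18194 genes 8925 were lower, 1445 of them without overlap. The 11 ventricular muscle markers averaged 12.86 to 13.00 on transgenic and 13.00 to 13.17 on control arrays, with Myl2 at 14.12 to 14.21 against 14.23 to 14.30 and 0 called. The 10 atrial markers averaged 8.78, 7.45 and 7.72 against 8.36, 8.59 and 9.52, with 1 rising and 1 falling. The riser was Clu, a secreted chaperone also made in injured tissue (1.18, SE 0.15). The other was Stard10, a lipid transfer gene, which fell by 1.78 (SE 0.30). Endothelial markers (8.75 to 8.88 against 8.71 to 8.89) and mural markers (8.73 to 8.89 against 8.58 to 8.74) had overlapping or near levels, with the mural genes Cnn1 rising and Abcc9 falling. Skeletal muscle, erythroid, conduction, neutrophil, lung, thymus and liver markers had 0 called. Krt18, a keratin of the epicardial list, rose by 1.64 (SE 0.22), 1 of 12 members called.

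Replicate 3, with its high 18S signal, offered a reading of genes chosen without it. Replicates 1 and 2 alone gave 666 rising and 273 falling genes (limma, adjusted p under 0.05). In replicate 3, which is 1 array against 1 and has no test, 559 of the 666 (83.9%) were higher in the transgenic heart, where 46.9% of all genes were. Of the 273, 251 (91.9%) were lower, against 52.0% of all genes. The median rise was 1.14 in replicates 1 and 2 and 0.69 in replicate 3, and the median of falling genes was -1.09 and -0.95. More than 2-fold in replicate 3 were 233 and 129 genes. With replicate 1 or 2 held out instead, limma called 0 genes in the other arrays, with 1805 and 1356 at an unadjusted p under 0.05. Of the 373 genes called on all 6 arrays, all had the same sign in both sets. They were chosen with both, and the absence of overlap between their groups fixed this in advance.

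**Figure D4:**
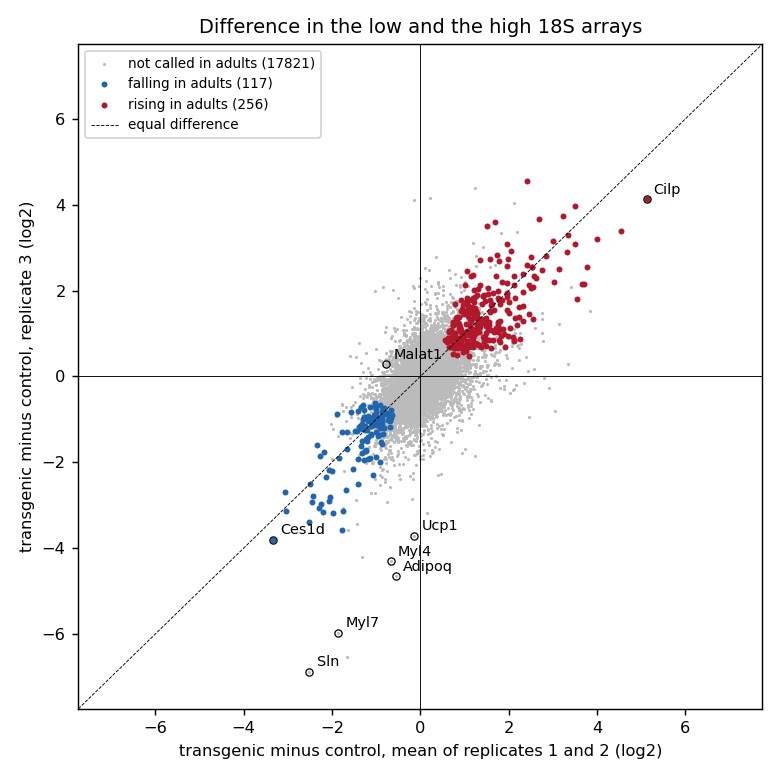
Difference between transgenic and control adult hearts (log2) in replicates 1 and 2 (horizontal axis, mean of both) and in replicate 3 (vertical axis, 1 array against 1), 1 point per gene, red and blue for genes called on all 6 arrays. Called genes lie along the line of equal difference; the atrial genes Sln, Myl7 and Myl4 and the fat genes Adipoq and Ucp1 lie far below it.

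In newborn hearts (3 transgenic, 2 control arrays) limma called 0 of 18194 genes in a fit of all 11 arrays, with 198 at an unadjusted p under 0.05. That fit gives both ages a shared spread for each gene. The median SD was 0.10 (transgenic) and 0.08 (control) in newborns, and 0.20 and 0.18 in adults. The newborn test was therefore conservative, and 0 called does not show that newborn hearts lacked a difference. The adult difference itself was tested against the newborn one, and 125 genes were called (0.687%), 81 with the adult effect higher and 44 lower. Of these, 80 were among the rising and 40 among the falling genes of the adult comparison. The other 5 were Cacnb1, Hspa5, Pcca, Sfrp5 and Tcaim. Apod was 5.05 ± 0.28 in newborn transgenic hearts (SD, n = 3) and 5.10 ± 0.10 in newborn controls (n = 2), a difference of -0.05. Its adult difference exceeded this by 3.10 (adjusted p = 0.00116). Uchl1 was high in all newborns, at 8.34 ± 0.05 against 8.01 ± 0.10, and Cd24a likewise, at 9.69 ± 0.09 against 9.63 ± 0.11. In adult controls these genes read 5.42 ± 0.16 and 6.31 ± 0.33 (n = 3), and in adult transgenic hearts 9.08 ± 0.49 and 8.97 ± 0.17.

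Cilp and Apod differ from that pair, since their newborn levels were low in both groups. Cilp read 3.89 ± 0.09 (n = 3) against 3.95 ± 0.06 (n = 2) in newborns, and its adult effect exceeded the newborn one by 4.84 (adjusted p = 0.00533). Among falling genes Ces1d had a newborn difference of 0.38 and an adult effect lower by 3.87 (adjusted p = 0.0017). Kcnj3 had -0.12 in newborns and was lower by 2.37, Lamb3 had 0.07 and was lower by 1.47, and the folate enzyme gene Aldh1l2 had -0.26 and was lower by 1.81. The metalloproteinase gene Adamts7 had 0.28 and was lower by 1.51. Dpysl3, a cytoskeletal protein of growing neurons, and the reductase gene Cyb5r3 had adult effects higher by 1.36 and 1.21. Of the 256 rising genes 73.4% were also higher in newborn transgenic hearts, with a median of 0.10, and of the 117 falling 66.7% were lower, with a median of -0.06. Across all genes 53.7% had the same sign at both ages. The count of 125 moved with the arrays used: it was 6 without newborn control replicate 1 and 35 without replicate 2. It was 73, 48 and 39 without newborn transgenic replicates 1 to 3. Without adult transgenic replicate 1 or 3 or adult control replicate 1 or 2 it was 79, 540, 202 and 59.

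**Figure D5:**
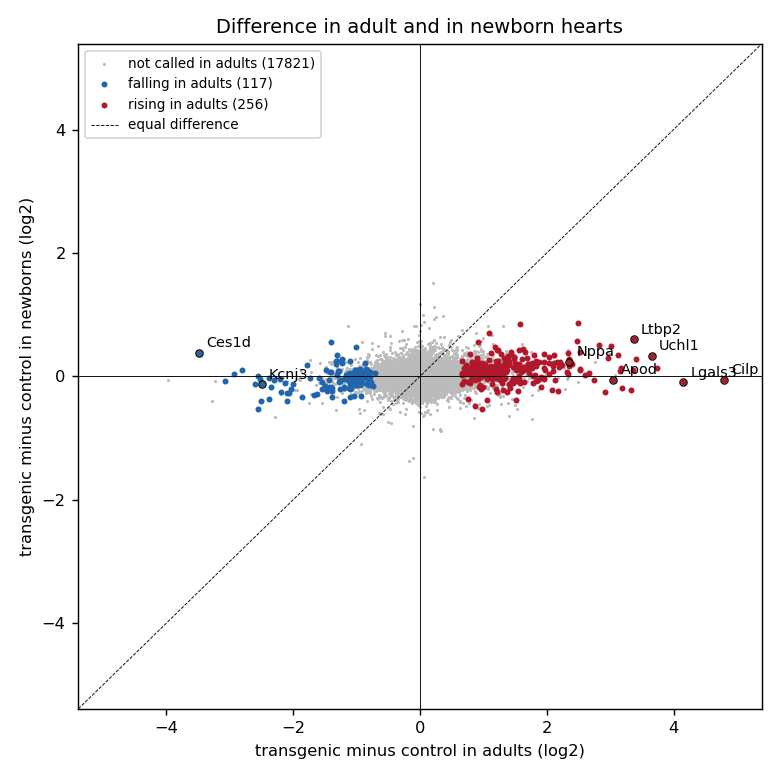
Difference between transgenic and control hearts in newborns (log2, vertical axis, 3 against 2 arrays) against that in adults (horizontal axis, 3 against 3 arrays), 1 point per gene, red and blue for genes called in adults. Called genes spread along the horizontal axis, far from the line of equal difference, with newborn differences near 0.

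Called genes were more frequent at higher levels. Among genes in the lowest of 4 equal bins of mean level 0.286% were called, and 1.80%, 2.70% and 3.41% in the next bins. The median 95% confidence interval of a difference reached 0.40 to either side, without adjustment over genes. Calls needed more: the smallest called differences were 0.66 among rising and 0.71 among falling genes. A list with 0 called can therefore hold differences of that size or below. The highest called genes were Ankrd1, Mgp, Ech1, Nppa, Clu, Acta1, Igfbp7 and Hrc. Mgp, which keeps vessel walls free of calcium, rose by 1.13 (SE 0.16), and Igfbp7 by 1.23 (SE 0.18). The lower probe sets of Igfbp7, at 6.44 and 7.14 in controls against 11.51 for the one used, differed by 1.35 and 0.02. Of the other probe sets of called genes, 305 of 343 had the same sign as the one used, against 10804 of 16764 over the other probe sets of all genes.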

How the data were processed

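Total RNA from mouse left ventricles was read on Affymetrix expression arrays. The deposited table holds log2 values per probe set, which the authors had normalised. The submitters' processing notes name RMA, affy and limma, without version or role. Of 45101 probe sets, 34958 have 1 gene symbol in the platform annotation, 932 several and 9211 none, and 34754 matched a RefSeq gene ID. Each gene was read by its probe set with the highest mean over the 11 arrays, which gave 18194 genes. Value columns were matched to samples by their labels, and 0 were left unmapped.

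The 3 transgenic and 3 control adult arrays were fitted alone with limma 3.58.1 in R 4.3.3, with no filter on low values, and p-values were adjusted over all genes by Benjamini-Hochberg. Genes with an adjusted p under 0.05 are called, as rising or falling. The adult minus newborn difference was tested in a fit of all 11 arrays. The script was tested on simulated data. The number of arrays limits the precision. Differences are on the log2 scale, and p-values cover the spread between these samples.

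Named genes were Hmgn5, the 15 largest rises and falls without overlap between the groups, the 10 smallest p, the 8 highest levels, 6 per direction for the difference between ages, and up to 4 members of each of 68 gene lists. Symbols that are only clone identifiers were passed over (8 rising, 6 falling). The text names most but not all of them, and the genes in the last section were chosen after their values were seen. The comparison, lists and alternatives were chosen with earlier results of these data known. Alternatives covered the model, batch, probe set rule, scaling, filter and each array left out. No label pairs same-numbered samples, and the main fit treated them as unpaired. Deviations of same-numbered adult arrays from their group means correlated at 0.31, -0.06 and 0.45 for replicates 1 to 3. These values do not settle whether the samples were paired, and a fit with the replicate block called 676 genes. Promoter windows came from RefSeq (GRCm38.p6).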

Additional observations from a re-analysis of the deposited data

Results flagged for a closer look

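The difference between transgenic and control hearts was not the same in adults and newborns for several named genes, by limma's test of the adult minus the newborn difference (log2, adjusted p under 0.05, 3 against 2 arrays in newborns). The value in parentheses is that difference of differences. Among genes that rose in adults, those with the largest values were Cilp (4.84), Lgals3 (4.25), Nmrk2 (3.605), Itgbl1 (3.545), Ccn5 (3.38), Uchl1 (3.32), Psca (3.25), Nox4 (3.13), Apod (3.10), Timp1 (3.07), Postn (3.04), Mfap4 (2.67), Cd24a (2.61), Ccn2 (2.425), Mfap5 (2.39), Omd (2.30) and Ildr2 (2.13). The others were Nppa (2.12), Frzb (2.05), Svep1 (1.93), Tgfb3 (1.88), Lbp (1.77), Krt18 (1.72), Anxa1 (1.63), Cnn1 (1.59), Ankrd23 (1.502), Fzd2 (1.40), Dpysl3 (1.36), Pfkp (1.32), Cyb5r3 (1.21), Tgfbr1 (1.09) and Msn (0.96).

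Among genes that fell in adults, the adult effect was lower for Ces1d (-3.87), Ano10 (-2.96), Ttll1 (-2.91), Tbc1d10c (-2.48), Cenpf (-2.47), Kcnj3 (-2.37), Egflam (-2.24), Slc36a2 (-2.17), Rpl3l (-2.10), Smco1 (-1.94), Aldh1l2 (-1.81), Maob (-1.71), Adamts7 (-1.51), Fkbp4 (-1.49), Lamb3 (-1.475), Slc2a12 (-1.38), Adhfe1 (-1.33), Mmut (-1.11), Acaa2 (-1.08), Mccc2 (-0.94) and Hrc (-0.80). The genes not called in adults alone were Sfrp5 (-1.20), Tcaim (-1.10), Cacnb1 (1.04), Pcca (-0.92) and Hspa5 (-0.87). In newborn hearts none of these genes was called, in a fit whose spread was shared with the adult arrays. Their newborn values rest on 2 control arrays.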

How the results depend on the processing

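The count of 373 called genes changed with the model more than with the scaling. It was 676 with the replicate block, 1176 with the 18S batch factor, 939 without the 2 arrays of high 18S signal, 1290 in a fit of all 11 arrays and 1251 with array weights. It was 158 over all probe sets, 50 against a 1.5-fold threshold and 0 with the atrial covariate (limma, 1266 at an unadjusted p under 0.05), and 58 to 895 without 1 array. A low-value filter (369), the mean of probe sets (252), trend and robust settings (375), cyclic loess (422) and a common array median (351) kept it within 1.5 times. The count of 125 genes that differed between ages was 53 with the replicate block, 711 without the high 18S arrays, 841 with array weights and 6 to 540 without 1 array. With the replicate block Nppb (adjusted p = 0.0348), Hmgn3 (0.0316) and Atf3 (0.0102) were called and Psmd14 (0.0595) was not, and 4 immediate early genes rose. No label pairs same-numbered samples, and not every sample correlated best with its own number. In adults, replicate 1 of both groups was male, and replicate 3 of both had the high 18S signal. The 810 genes called in replicates 1 and 2 with the same sign in replicate 3 became 0 with replicate 1 or replicate 2 held out. No called gene named in the text changed direction under any alternative. For the fits that only left out arrays, absence of overlap between the groups fixed this in advance. Hmgn1, not called, changed sign: it was 0.21 without the high 18S arrays, 0.10 over all probe sets, 0.0006767 as the mean of probe sets, 0.16 with array weights, 0.055 with the atrial covariate, and -0.24 to 0.12 without 1 array. The causes were not tested. Differences under about 0.40 were below what 3 arrays a group resolve for a typical gene.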

Other observations

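Of the called genes, 197 rising and 82 falling were on none of the gene lists. A few of them are given here, in families that were chosen after their values were seen and were not tested. Annexins, proteins that bind membranes when calcium rises, had 4 of 11 measured members rising and 0 falling, with a median of 0.86. Anxa1 read 11.30, 11.16 and 11.10 on transgenic and 9.58, 9.33 and 9.33 on control arrays and rose by 1.77 (SE 0.14, limma adjusted p = 0.00318). Anxa2 rose by 1.07, Anxa4 by 1.01 and Anxa7 by 0.92. Of 14 S100 proteins, calcium binders that partner with annexins, 12 were higher and 2 rose, S100a4 by 2.39 and S100a10 by 1.18. The hyaluronan receptor gene Cd44 rose by 1.96, the injury-induced receptor gene Tnfrsf12a by 2.08 and the large matrix protein gene Svep1 by 2.09.

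Among falling genes outside the lists, the orphan receptor gene Gpr22 fell by 2.09 and Maob, which breaks down amines, by 1.74. The alcohol dehydrogenase gene Adhfe1 fell by 1.62, the irisin precursor gene Fndc5 by 1.39 and the cytokine gene Ctf1 by 1.26. The glycerol channel gene Aqp7 fell by 1.497, the glucose carrier gene Slc2a12 by 1.30 and the sugar-sensing transcription factor gene Mlxipl by 1.40. Fkbp5, a target of glucocorticoids, rose by 1.62, and its relative Fkbp4 fell by 1.41. Of 44 mitochondrial solute carriers 30 were lower, 1 fell and 0 rose, with a median of -0.14.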
